A study of Mus musculus with 25 samples.

Results

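The subunits of the oxidative phosphorylation complexes were examined in αTC1 and βTC6, mouse pancreatic tumor cell lines of alpha cell and beta cell origin. Members were chosen by gene symbol alone, taking the Ndufa, Ndufb, Ndufc, Ndufs and Ndufv genes with a number, Sdha to Sdhd, and all genes beginning with Uqcr, with Cox followed by a number from 4 to 8, or with Atp5. This gave 86 of the 24439 genes of the RNA-seq tables, on 19 chromosomes, and 159 of the 65053 ATAC-seq peaks, those whose nearest annotated gene carries such a symbol. RNA-seq (polyadenylated RNA, stranded library) covered 3 libraries of αTC1 and 3 of βTC6. ATAC-seq, which counts cuts made by a transposase in accessible DNA, covered 5 libraries of each line and 9 mixtures of both, from 10% to 90% αTC1 cells in equal steps, each sequenced once. αTC1 here is alpha TC1 clone 6 and βTC6 is beta-TC-6, both bought as established lines, neither treated nor edited for this work. The lines were grown in different versions of Dulbecco's medium, which also differed in serum and supplements. Per the methods, glucose was listed among the supplements for αTC1 only and sodium pyruvate for βTC6 only. A difference between the lines and a difference between the media, fuel supply included, therefore cannot be told apart. Replicates are separate libraries of the same line, and nothing in the labels says that they came from separate cultures, so each p-value measures only the spread between these libraries.

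Oxidative phosphorylation takes place on the inner mitochondrial membrane. Complex I accepts electrons from NADH and complex II accepts them from succinate, complex III passes them to cytochrome c, and complex IV hands them to oxygen, while complexes I, III and IV pump protons that drive ATP synthesis in complex V. Most subunits are encoded in the nucleus and a small core set in mitochondrial DNA. In islet endocrine cells, ATP made this way is known to close potassium channels and so to couple nutrient supply to hormone release, a step best described in beta cells.

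RNA libraries held from 21795367 to 24857674 expected counts in αTC1 and from 24316436 to 25876765 in βTC6, and ATAC-seq libraries held from 4397851 to 10374903 reads in peaks. The marker lists matched the labels: summed alpha cell markers ran from 12352 to 14698 FPKM (fragments per kilobase of transcript, scaled to sequencing depth) in αTC1 against 194 to 283 in βTC6, and summed beta cell markers from 13.6 to 14.9 against 25376 to 37992. Ins1 and Pdx1 were listed at 0 in all αTC1 libraries. The alpha cell sum in βTC6 was mostly Gcg (249, 267 and 172 FPKM), and the beta cell sum in αTC1 mostly Nkx6-1 (14.1, 13.3 and 14.1). Markers of delta, PP and epsilon cells summed to 0.31 to 1.04 FPKM in αTC1 and 238 to 349 in βTC6. Most of that βTC6 sum was Sst (207, 234 and 325 FPKM), with Ppy uneven at 50.8, 3.7 and 23.4. Hhex and Ghrl stayed under 1 FPKM in both lines. The part of these markers in the results was not tested. Acinar and ductal markers stayed at or under 0.08 FPKM and endothelial, stromal and immune markers at or under 0.45. αTC1 RNA replicates 1 and 2 stood closer to each other (chi-square per gene of 2.06) than to replicate 3 (27.8 and 29.3). The βTC6 RNA pairs stood at 17.3, 25.2 and 38.4, so the close αTC1 pair was the unusual one. The ATAC-seq replicates 1 to 3 of each line stood closer to each other (2.05 to 2.55 per peak) than to replicates 4 and 5 (4.47 to 11.4). Counts without αTC1 RNA replicate 3 or 1, and for these ATAC-seq replicate groups alone, are given beside the results. In bulk samples, fewer cells of a type and less RNA per cell cannot be told apart.

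Most subunit genes had more RNA in αTC1. A gene was tested when it reached 1 FPKM in all 3 libraries of either line, which 79 of 86 members did. Of the 79, 47 were higher in αTC1 past a false discovery rate (FDR) of 5% (59.5%, against 36.0% of the 12195 genes tested), 17 were higher in βTC6 (21.5%, against 38.7%) and 15 did not pass (edgeR quasi-likelihood test). The median log2 fold change (log2FC, βTC6 relative to αTC1, negative where αTC1 was higher) was -0.33 over the members and 0.01 over all genes. The differences were small. By a log2FC beyond 1, 1 member (Ndufs1) was higher in αTC1 (background 12.5% of genes). Near that limit the count depended on the fit. It was 4 with limma on log2 FPKM, where Sdhc, Cox5b and Atp5c1 joined, 3 without the FPKM filter, where Cox5b and Atp5c1 joined, and 2 without αTC1 replicate 1, βTC6 replicate 2 or βTC6 replicate 3, where Uqcr11 or Cox5b joined. Toward βTC6, 1 member (Cox6a2) lay beyond 1 (background 19.1%) and also beyond 2 (background 10.2%). It met the filter in βTC6 alone, so nothing is read from that count, and without the filter Cox6b2 and Cox7b2 joined it to make 3. No member was higher in αTC1 beyond 2 (background 4.08%). Without αTC1 replicate 3 the split was 46 and 14. Without αTC1 replicate 1 it was 41 and 11. When libraries were scaled to the summed ERCC spike-in counts instead, which took from 0.436% to 0.971% of counts in βTC6, 1 member passed in each direction with a median log2FC of -0.38.

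**Figure D1:**
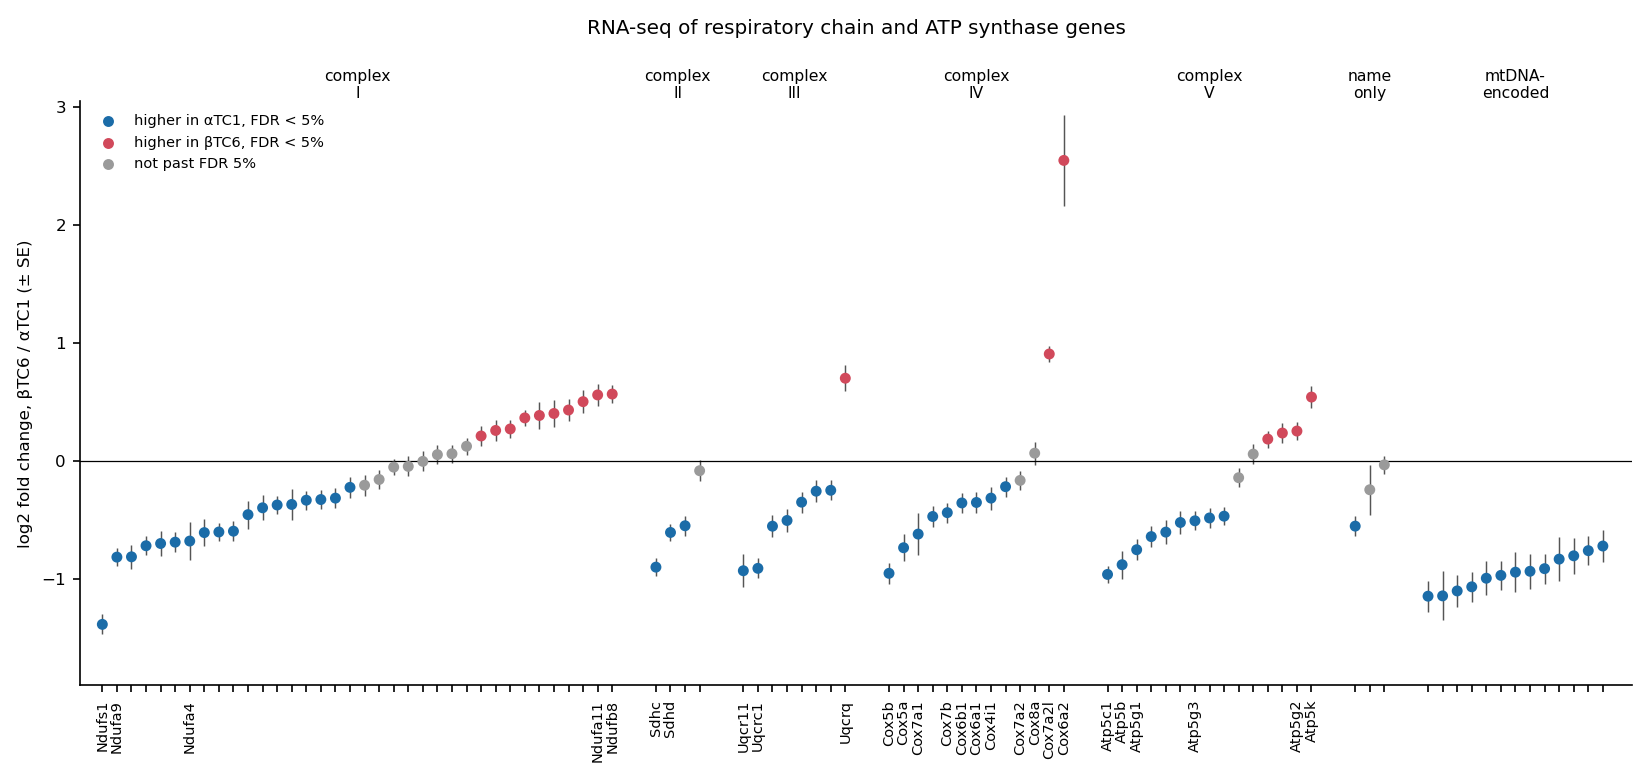
Log2 fold change of RNA (βTC6 relative to αTC1, y axis) for the 79 members tested, by complex, and for the 13 subunits encoded in mitochondrial DNA, with points for the estimate and bars for 1 standard error, colored by direction among those past FDR 5%, and with symbols only for members described with full statistics. Of the members, 47 lie below zero and passed, 17 lie above zero and passed, and Ndufs1 at -1.38 and Cox6a2 at 2.55 are the outermost.

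The members are among the most abundant RNAs of both lines, with a median over members of 188 FPKM against 14.2 over all genes tested, and 60 of 79 members reached a mean of 100 FPKM, a level that 6.68% of all genes reached. At this level of expression the split was the other way in the remaining genes outside mitochondrial DNA. Of 742 genes that reached 100 FPKM and are neither members nor encoded in mitochondrial DNA, 30.3% were higher in αTC1 and 43.5% in βTC6. Their median log2FC was 0.13. Of the 60 members at that level, 61.7% were higher in αTC1 and 20.0% in βTC6, with a median of -0.35. FPKM values of the libraries did not overlap between the lines for 66 of 79 members, 50 higher in αTC1 and 16 in βTC6, against 77.7% of all genes without overlap. Together the members took from 1.66% to 1.77% of gene counts in αTC1 and from 1.19% to 1.32% in βTC6.

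Complex I, the NADH dehydrogenase, was split most evenly. Of 36 subunit genes tested, 18 were higher in αTC1, 10 in βTC6 and 8 did not pass, with a median log2FC of -0.21. Ndufs1 encodes the large iron-sulfur subunit of the electron input arm. It stood at 127, 128 and 111 FPKM in αTC1 and 45.2, 46.9 and 43.3 in βTC6, 2.61-fold higher in αTC1 (log2FC -1.38 ± 0.09 (SE), FDR 8.53e-07). The gene lies at chr1:63190170-63223396 (mm9, minus strand). Ndufa9, an accessory subunit near the ubiquinone site, stood at 120.0, 118 and 113 FPKM in αTC1 and 60.8, 65.8 and 65.7 in βTC6 (log2FC -0.81 ± 0.07, FDR 9.24e-06). In both genes the lowest αTC1 library lay well above the highest βTC6 library.

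The subunits higher in βTC6 were Ndufs4, Ndufs5, Ndufs8, Ndufa1, Ndufa3, Ndufa11, Ndufb4, Ndufb7, Ndufb8 and Ndufb11. Ndufb8, a membrane arm subunit whose protein is lost when the complex is not assembled, stood at 254, 251 and 289 FPKM in αTC1 and 378, 398 and 397 in βTC6 (log2FC 0.57 ± 0.08, FDR 0.000159). Ndufa11, an accessory subunit of the membrane arm, stood at 20.5, 22.1 and 22.4 FPKM in αTC1 and 27.4, 32.2 and 32.4 in βTC6 (log2FC 0.56 ± 0.09, FDR 0.000451). Thus subunits of the same complex, present in it in equal copy number, moved in opposite directions without overlap of the libraries. Ndufa12, Ndufa7, Ndufa13, Ndufb6, Ndufb10, Ndufs6, Ndufv1 and Ndufv2 did not pass, with log2FC from -0.20 to 0.13.

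Complex II, succinate dehydrogenase, had 3 of 4 subunits higher in αTC1 and a median log2FC of -0.58. Sdhc, a membrane anchor at chr1:173057296-173080734 (minus strand), stood at 136, 131 and 132 FPKM in αTC1 and 61.1, 63.1 and 66.3 in βTC6 (log2FC -0.90 ± 0.08, FDR 7.31e-06). Sdhd, the other anchor, stood at 133, 138 and 126 FPKM in αTC1 and 83.1, 83.1 and 85.5 in βTC6 (log2FC -0.60 ± 0.07, FDR 4.62e-05). Sdha, the flavoprotein, changed with them (log2FC -0.55 ± 0.08). Sdhb, the iron-sulfur subunit, overlapped between the lines at 143, 147 and 121 FPKM in αTC1 and 119, 124 and 131 in βTC6 and did not pass (log2FC -0.08 ± 0.09, FDR 0.432).

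Complex III had 7 of 8 subunits higher in αTC1 and 1 higher in βTC6, and no library values of the 8 overlapped between the lines. Uqcrc1, a core subunit, stood at 123, 125 and 111 FPKM in αTC1 and 59.7, 65.1 and 58.7 in βTC6 (log2FC -0.91 ± 0.08, FDR 1.09e-05). Uqcr11, a small accessory subunit, stood at 478, 488 and 652 FPKM in αTC1 and 239, 301 and 279 in βTC6 (log2FC -0.93 ± 0.14, FDR 0.000249), with αTC1 replicate 3 above the others. Uqcrq, the small ubiquinone-binding subunit at chr11:53241424-53244333 (minus strand), went the other way. Its values were 178, 172 and 152 FPKM in αTC1 and 236, 234 and 315 in βTC6 (log2FC 0.70 ± 0.11, FDR 0.000313).

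Complex IV, cytochrome c oxidase, had 9 of 13 tested genes higher in αTC1, 2 higher in βTC6 and 2 not passed, with a median log2FC of -0.35. Cox5b, a nuclear subunit on the matrix side at chr1:36748332-36750230 (plus strand), stood at 530, 525 and 494 FPKM in αTC1 and 229, 257 and 273 in βTC6 (log2FC -0.95 ± 0.09, FDR 9.86e-06). Cox5a, its neighbor in the complex, stood at 228, 225 and 186 FPKM in αTC1 and 108, 126 and 135 in βTC6 (log2FC -0.73 ± 0.11, FDR 0.000295). Cox4i1, the ubiquitous isoform of subunit 4, was among the most abundant members at 844, 835 and 783 FPKM in αTC1 and 566, 684 and 656 in βTC6 (log2FC -0.31 ± 0.10, FDR 0.0165). Ndufa4 is named for complex I and counted there, but it is now known to belong to cytochrome c oxidase. It stood at 755, 733 and 498 FPKM in αTC1 and 358, 436 and 400 in βTC6 (log2FC -0.68 ± 0.16, FDR 0.0036), with αTC1 replicate 3 nearest to the βTC6 values.

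The 2 genes of this complex higher in βTC6 are not part of its common core. Cox7a2l, a relative of subunit 7a that joins complexes III and IV into supercomplexes, lies at chr17:83901259-83913673 (minus strand). It stood at 149, 144 and 152 FPKM in αTC1 and 264, 273 and 266 in βTC6 (log2FC 0.91 ± 0.07, FDR 3.71e-06). Cox6a2, the heart and muscle isoform of subunit 6a, lies at chr7:135348950-135349880 (minus strand). It was low in both lines at 1.88, 1.51 and 0.51 FPKM in αTC1 and 5.59, 8.7 and 7.53 in βTC6, 5.85-fold higher in βTC6 (log2FC 2.55 ± 0.39). It entered the test only through βTC6, the line where it was high, since αTC1 replicate 3 lay under 1 FPKM. In the fit without the FPKM filter its log2FC was 2.49 (FDR 9.16e-05), and leaving out single libraries moved it between 2.16 and 2.90. Cox8a (log2FC 0.07, FDR 0.546) and Cox7a2 (log2FC -0.16, FDR 0.104) did not pass.

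Complex V, ATP synthase, had 9 of 15 subunits higher in αTC1, 4 higher in βTC6 and 2 not passed, with a median log2FC of -0.48. Atp5c1, the gamma subunit that forms the rotor shaft, stood at 418, 394 and 406 FPKM in αTC1 and 200.1, 195 and 207 in βTC6 (log2FC -0.96 ± 0.07, FDR 3.16e-06). Atp5b, the catalytic beta subunit, was the most abundant member, with 1353, 1379 and 1105 FPKM in αTC1 and 637, 702 and 718 in βTC6 (log2FC -0.88 ± 0.12, FDR 0.000123). Of the other head and stalk genes, Atp5a1, Atp5d, Atp5o, Atp5f1 and Atp5j were higher in αTC1 (log2FC from -0.64 to -0.47), Atp5h did not pass (-0.14, FDR 0.145) and Atp5e, of the central stalk, was higher in βTC6 (0.24, FDR 0.029). The 4 subunits higher in βTC6 were Atp5e, Atp5g2, Atp5k and Atp5l. Atp5k, subunit e of the membrane part, stood at 263, 268 and 239 FPKM in αTC1 and 329, 350.0 and 398 in βTC6 (log2FC 0.54 ± 0.09, FDR 0.000585).

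Summed over its members, every complex had less RNA per length in βTC6. The summed FPKM of complex I was 6062 ± 94.1 (SD, n = 3) in αTC1 and 5293 ± 343 in βTC6, a ratio of 0.873. That sum includes Ndufa4, a subunit of complex IV, with a mean of 662 FPKM in αTC1 and 398 in βTC6. The ratio was 0.671 for complex II (526 ± 28.4 and 353 ± 10.2), 0.724 for complex III (2420 ± 55.3 and 1751 ± 146), 0.789 for complex IV (4951 ± 102 and 3907 ± 312) and 0.756 for complex V (6562 ± 230 and 4959 ± 288). Of the genes that carry such a name without being a subunit, Atp5sl was higher in αTC1 (log2FC -0.55 ± 0.08), Cox4nb and Atp5s did not pass, and the pseudogene Atp5l-ps1 reached at most 0.17 FPKM. Many subunit genes have processed pseudogenes, and how reads were divided between near-identical copies was not tested.

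**Figure D2:**
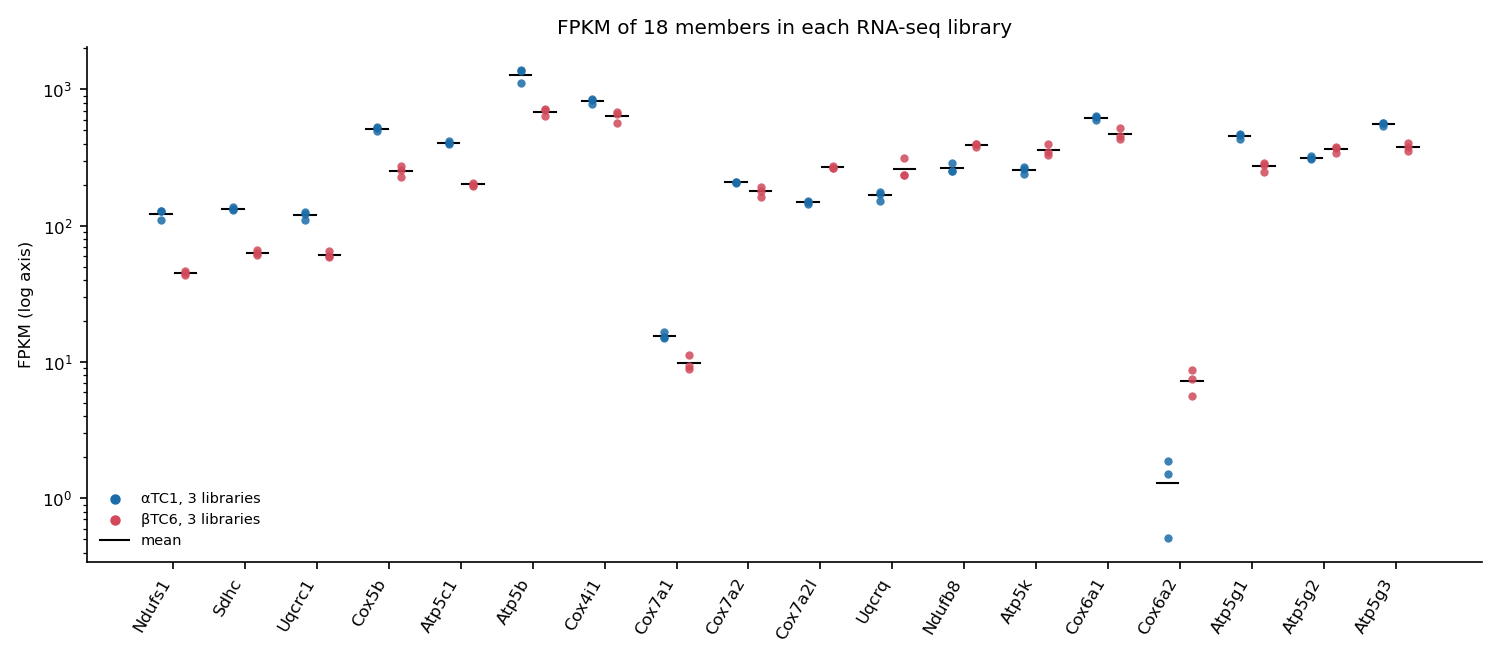
RNA level in FPKM (y axis, log scale) of 18 members, with 1 point for each of the 3 αTC1 and 3 βTC6 libraries and a short line at the mean. The αTC1 points of Ndufs1 (111 to 128) lie above its βTC6 points (43.3 to 46.9), and those of Cox7a2l (144 to 152) lie below (264 to 273).

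Some subunits exist as isoforms encoded by separate genes, and the share of each isoform in its group was compared on the FPKM scale. The 3 genes for subunit c of ATP synthase encode the same mature protein behind different import peptides. Atp5g1 fell from 34.1% ± 0.455 (SD, n = 3) of the group in αTC1 to 26.8% ± 0.666 in βTC6, Atp5g3 fell from 42.0% ± 0.236 to 37.4% ± 0.573, and Atp5g2 rose from 23.8% ± 0.602 to 35.8% ± 0.564. Behind these shares, Atp5g1 went from 460.4, 468 and 431 FPKM in αTC1 to 247, 281 and 289 in βTC6 (log2FC -0.75 ± 0.09), and Atp5g3 from 565, 571 and 538 to 356, 377 and 404 (log2FC -0.51 ± 0.08). Atp5g2 went from 310.4, 325 and 313 FPKM to 344, 369 and 376 (log2FC 0.25 ± 0.07, FDR 0.012), so the order of Atp5g1 and Atp5g2 was exchanged between the lines in every library.

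In the Cox7a group, Cox7a2 made up 55.9% ± 0.621 in αTC1 and 39.1% ± 1.53 in βTC6, while Cox7a2l made up 39.9% ± 0.462 and 58.7% ± 1.58. Cox7a1, the heart and muscle isoform, made up 4.2% ± 0.191 and 2.15% ± 0.259, with 15.1, 15.2 and 16.6 FPKM in αTC1 and 8.84, 9.42 and 11.2 in βTC6 (log2FC -0.62 ± 0.18, FDR 0.0115). In the other groups 1 gene carried nearly all the RNA in both lines. Cox6a1 held 99.8% of its group in αTC1 and 98.5% in βTC6, Cox6b1 and Cox7b held at least 99.6% on average, and Cox4i1, Cox8a and Ndufa4 at least 99.9%. Cox6a1 (log2FC -0.35), Cox6b1 (-0.35) and Cox7b (-0.44) were higher in αTC1. Apart from Cox6a2, the minor partners failed the filter. Cox6b2, the testis isoform, ranged from 0.08 to 0.24 FPKM in αTC1 and from 0.63 to 1.65 in βTC6, and Cox7b2 from 0.08 to 0.09 and from 0.48 to 0.76. Neither overlapped between the lines, and in the fit without the filter both were higher in βTC6, Cox6b2 with a log2FC of 3.13 ± 0.67 (FDR 0.00128) and Cox7b2 with 2.70 ± 0.74 (FDR 0.00674). Cox4i2, the isoform of subunit 4 known from lung, and Ndufa4l2 reached at most 0.17 and 0.41 FPKM, Cox8b at most 0.12, and Cox8c was listed at 0 in all libraries.

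The rest of the pathway was described with lists drawn up from knowledge of the pathway, and their counts stand beside the shares over all genes, 36.0% higher in αTC1 and 38.7% higher in βTC6. All 13 subunits encoded in mitochondrial DNA were higher in αTC1, with a median log2FC of -0.94 and a range from -1.14 (mt-Nd2) to -0.72 (mt-Nd3). mt-Co1, the catalytic core of complex IV, went from 13640 ± 1457 FPKM (SD, n = 3) to 6874 ± 301 (log2FC -0.93 ± 0.15, FDR 0.000326). Genes of mitochondrial DNA took from 6.21% to 6.76% of gene counts in αTC1 and from 3.09% to 3.49% in βTC6. The 4 nuclear subunits outside the symbol rule were also higher in αTC1, among them Cyc1, the cytochrome c1 of complex III, from 201 ± 10.2 to 122 ± 6.19 FPKM (log2FC -0.66 ± 0.08), and 2010107E04Rik (log2FC -0.72 ± 0.08).

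Of 9 tested carriers and channels, 4 were higher in αTC1, a share near that over all genes, 2 were higher in βTC6 and 3 did not pass. Cycs, cytochrome c itself, stood at 105, 96.3 and 80.9 FPKM in αTC1 and 30.2, 36.8 and 31.6 in βTC6 (log2FC -1.44 ± 0.13, FDR 9.9e-06), and Ucp2, an uncoupling protein homolog, went from 135 ± 16.0 FPKM to 60.3 ± 4.95 (log2FC -1.09). Vdac1 (log2FC 0.50) and Vdac2 (log2FC 0.74), channels of the outer membrane, were higher in βTC6. Of 32 assembly factors tested, 18 were higher in αTC1, 4 in βTC6 and 10 did not pass, with a median log2FC of -0.30. Acn9 (log2FC -1.08), for complex II, and Tmem70 (log2FC -1.03), for ATP synthase, lay at one end, and Ttc19 (0.73), for complex III, and Sco1 (0.55), for copper insertion into complex IV, at the other.

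Regulators of mitochondrial biogenesis and mitochondrial DNA expression were higher in αTC1 in 14 of 15 genes tested, with a median log2FC of -0.65. Ppargc1a, the coactivator PGC-1alpha, stood at 103, 101 and 85.3 FPKM in αTC1 and 2.25, 4.09 and 2.96 in βTC6 (log2FC -4.30 ± 0.21, FDR 2.04e-07). Tfb2m, a transcription factor of mitochondrial DNA, had a log2FC of -1.44 ± 0.10, and Tfb1m was the gene higher in βTC6 (log2FC 0.38 ± 0.14, FDR 0.0294). Of the factors whose binding words were searched in member promoters, this list held Esrra (log2FC -1.06), Gabpa (-0.89), Yy1 (-0.58) and Nrf1 (-0.42). Of 17 pyruvate dehydrogenase and citric acid cycle enzymes, 12 were higher in αTC1, 2 in βTC6 and 3 did not pass. Among them Suclg2 (log2FC -1.03) was higher in αTC1, and the pair higher in βTC6 was Pdhb (1.11) and Sucla2 (1.03). Suclg2 and Sucla2 are the alternative partners of the same succinyl-CoA synthetase, specific for GTP and for ATP.

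Chromatin at these genes was compared with normalized read counts in peaks. Of the 159 member peaks, 94 were higher in αTC1 past FDR 5% (59.1%, against 38.1% of all 65053 peaks), 30 were higher in βTC6 (18.9%, against 39.9%) and 35 did not pass (limma on log2 of the count plus 1). The median log2FC was -0.48 over member peaks and 0.00 over all. Beyond a log2FC of 1 there were 35 peaks higher in αTC1 (background 19.2%) and 19 higher in βTC6 (background 29.8%). With a pseudocount of 5 in place of 1 these counts were 13 and 12. The peaks lay near 72 genes, 41 of them with 1 peak, and Cox7a2l had the most with 9. With replicates 1 to 3 alone the split was 87 and 29, and with replicates 4 and 5 alone 67 and 23.

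Promoter and distal peaks were counted apart, since promoter peaks of all genes also leaned toward αTC1. Of 70 member peaks within 2 kb of a start site, 56 were higher in αTC1 (80.0%, against 52.3% of 14582 promoter peaks), 2 were higher in βTC6 (2.86%, against 23.4%) and the median log2FC was -0.59 against -0.31 over all promoter peaks. Of 89 peaks farther away, 38 were higher in αTC1 (42.7%, against 34.0%) and 28 in βTC6 (31.5%, against 44.6%), with a median of -0.15 against 0.18. In both classes the members' median lay below that of all peaks, and the 2 classes were not compared by a test. Of the promoter peaks, 12 exceeded a log2FC of 1 toward αTC1 (17.1%, against 12.9% of all promoter peaks) and 0 toward βTC6 (against 13.2%). With replicates 1 to 3 alone 53 promoter peaks were higher in αTC1 and 2 in βTC6, and with replicates 4 and 5 alone 38 and 1.

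**Figure D3:**
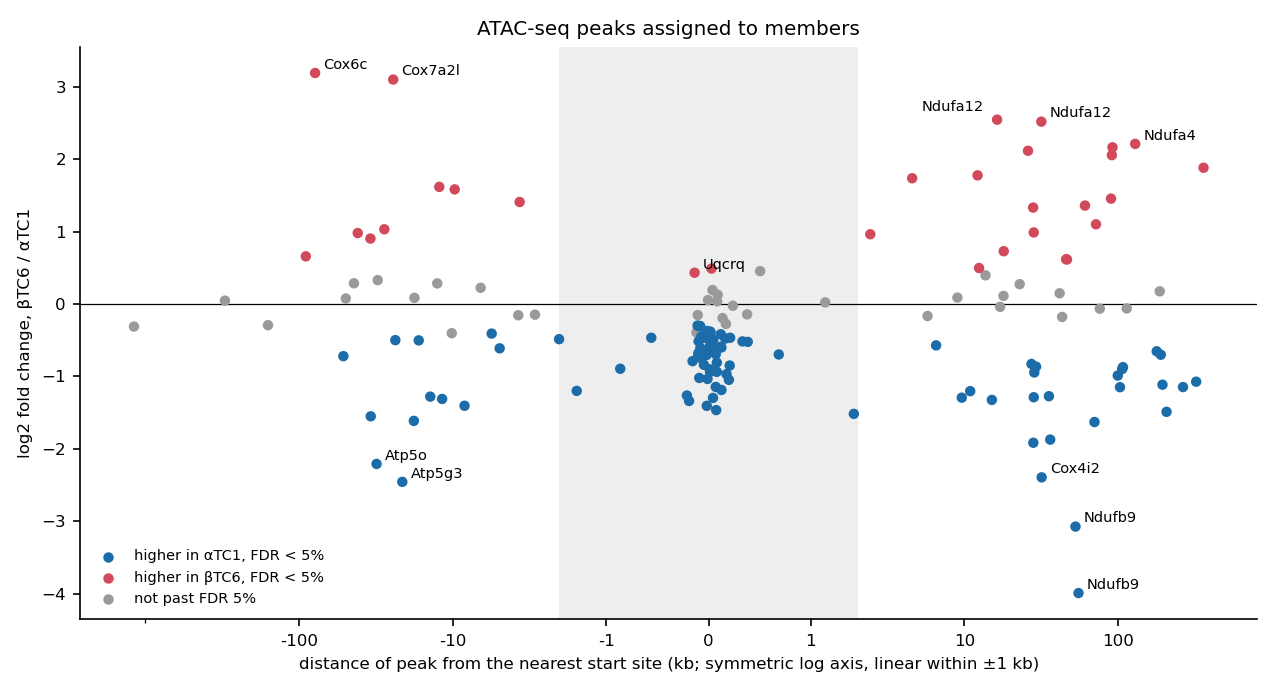
Log2 fold change of accessibility (βTC6 relative to αTC1, y axis) of the 159 member peaks against distance to the nearest start site in kb (x axis, symmetric log scale), with the 2 kb promoter window shaded and points colored by direction among those past FDR 5%. Within the window 56 of 70 peaks passed below zero and 2 above it, and the largest differences in both directions, such as Ndufb9 at -3.99 and Cox6c at 3.19, lie outside it.

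The Cox5b promoter differed most among the promoters of members described with full statistics, with a lowest, median and highest normalized read count of 48.4, 51.3 and 59.7 in αTC1 and 15.6, 18.2 and 20.5 in βTC6 (log2FC -1.46 ± 0.10, FDR 9.1e-11). Sdhc followed with 38.9, 54.9 and 60.4 in αTC1 and 16.8, 17.5 and 25.1 in βTC6 (log2FC -1.40 ± 0.13, FDR 4.65e-09). At both promoters the lines did not overlap. The peak over the Ndufs1 start site, listed under the divergent neighbor Eef1b2 and so outside the 159, went from 62.9 ± 10.9 (SD, n = 5) to 24.2 ± 4.78 (log2FC -1.35 ± 0.14, FDR 3.33e-08). The promoter peaks of Ndufa9 (log2FC -1.14), Uqcrc1 (-0.94), Cox6b1 (-0.94), Ndufa4 (-0.79), Uqcr11 (-0.63), Atp5c1 (-0.61), Atp5g1 (-0.61), Cox5a (-0.42) and Atp5b (-0.38) were also higher in αTC1, while those of Cox7b (-0.27), Cox6a1 (-0.15), Cox7a1 (0.05) and Atp5k (0.19) did not pass. Quantile normalization turned the Atp5b promoter to a log2FC of 0.0332 (FDR 0.77). A peak lay within 500 bases of an annotated start site for 78 of 86 members. The 8 without one were the 7 genes that failed the RNA filter and Cox6a2. In 14 cases the peak was listed under another gene, and 11 of these 13 peaks passed the test, as did 78.0% of all peaks.

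Promoters of the genes with more RNA in βTC6 were mostly no more accessible there. The Cox7a2l promoter had a lowest, median and highest count of 54.8, 61.8 and 68.0 in αTC1 and 37.9, 43.6 and 48.7 in βTC6 (log2FC -0.51 ± 0.09, FDR 4.14e-05), opposite to its RNA. Atp5g2, whose RNA also rose in βTC6, had 33.9, 40.2 and 45.7 in αTC1 and 17.2, 18.4 and 20.7 in βTC6 at its promoter (log2FC -1.03, FDR 3.36e-08), and Ndufb8 had a log2FC of -0.47. Uqcrq and Atp5e held the exceptions. The Uqcrq promoter had 37.1, 37.6 and 43.0 in αTC1 and 45.8, 54.3 and 62.4 in βTC6 (log2FC 0.43 ± 0.09, FDR 0.000348), and the Atp5e promoter 23.7, 27.0 and 29.6 against 32.7, 37.7 and 45.4 (log2FC 0.49 ± 0.10, FDR 0.00022).

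Across the 64 members with both a promoter peak and a tested RNA, the log2FC of the nearest promoter peak and of RNA had the same sign in 47, with a Pearson r of 0.556 and a Spearman rho of 0.559. These are across genes, which share the same libraries and are not independent replicates. Over 9452 other genes the coefficients were 0.744 and 0.587. Of 37 members with more RNA in αTC1, 33 had a promoter peak higher in αTC1 and 4 did not pass, beside 2750 of 3358 other genes with a promoter peak higher in αTC1. Of 13 members whose RNA did not pass, 11 had a promoter peak higher in αTC1, beside 1599 of 2378 other genes. Of 14 with more RNA in βTC6, 8 had a promoter peak higher in αTC1, 4 did not pass and 2 were higher in βTC6. The median promoter log2FC was -0.70, -0.47 and -0.38 in these 3 classes, beside -0.69, -0.43 and -0.04 in the other genes. Among the other genes with more RNA in βTC6, 1294 of 3716 had a promoter peak higher in αTC1.

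**Figure D4:**
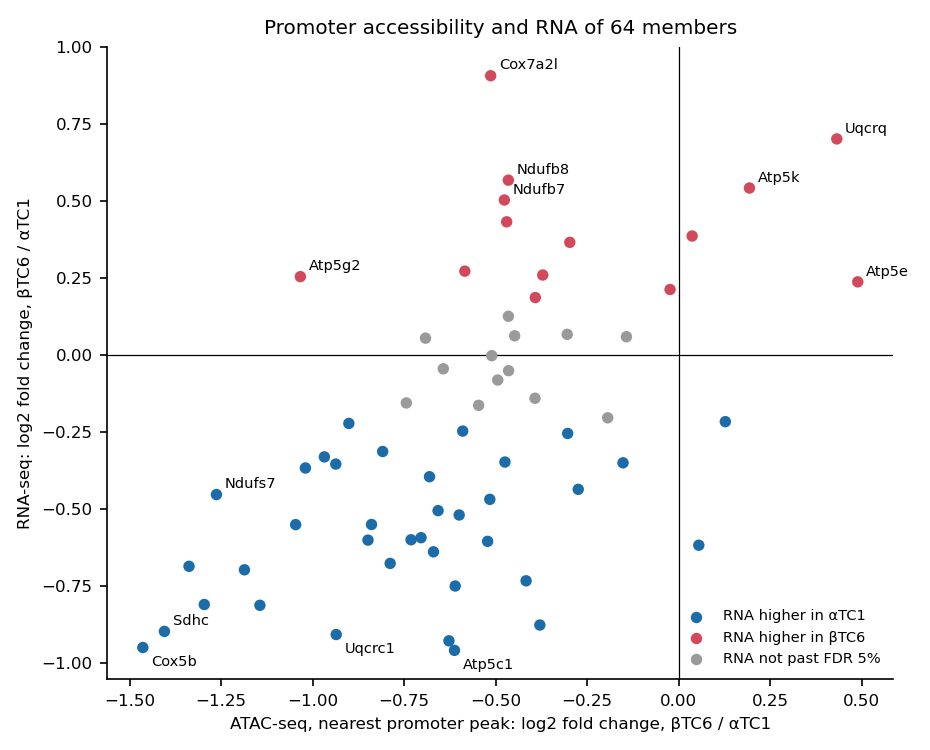
Log2 fold change of the nearest promoter peak (x axis) and of RNA (y axis), both βTC6 relative to αTC1, with 1 point for each of 64 members colored by the direction of the RNA. Most points lie left of zero on the x axis, above and below the RNA zero line, and of the 14 members with more RNA in βTC6 only Uqcrq and Atp5e have a promoter peak that was higher in βTC6.

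The promoters of genes that moved differently are shown for comparison. The sequences are the 250 bases before the start site from RefSeq (GRCm38.p6), each found once and without mismatch in mm9, whose coordinates are given. Capitals mark matches, on either strand, to words bound by factors known for respiratory genes: NRF1 (GCATGCGC), ETS factors such as GABPA (CCGGAAGT), YY1 (AAGATGGC), estrogen-related receptors (CAAGGTCA), CREB (TGACGTCA), SP factors (GGGCGG) and NF-Y (CCAAT). A match is a description of letters and not a bound site. The first 2 promoters were less accessible in βTC6 and their RNA was lower there, the next 3 were less accessible while their RNA was higher, and Atp5g3 is the isoform of Atp5g2 whose RNA was lower.
Cox5b promoter, chr1:36748082-36748331, plus strand: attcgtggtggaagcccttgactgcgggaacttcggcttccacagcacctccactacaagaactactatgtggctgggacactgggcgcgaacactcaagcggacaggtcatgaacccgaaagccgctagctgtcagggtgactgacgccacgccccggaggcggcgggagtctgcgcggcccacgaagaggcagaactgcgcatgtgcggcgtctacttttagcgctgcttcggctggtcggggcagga
Ndufb2 promoter, chr6:39542314-39542563, plus strand: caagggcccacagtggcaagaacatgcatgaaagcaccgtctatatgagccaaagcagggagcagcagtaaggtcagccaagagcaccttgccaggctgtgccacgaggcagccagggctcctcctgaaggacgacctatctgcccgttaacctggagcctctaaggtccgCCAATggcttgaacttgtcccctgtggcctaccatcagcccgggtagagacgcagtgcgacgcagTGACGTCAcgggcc
Atp5g2 promoter, chr15:102501479-102501728, minus strand: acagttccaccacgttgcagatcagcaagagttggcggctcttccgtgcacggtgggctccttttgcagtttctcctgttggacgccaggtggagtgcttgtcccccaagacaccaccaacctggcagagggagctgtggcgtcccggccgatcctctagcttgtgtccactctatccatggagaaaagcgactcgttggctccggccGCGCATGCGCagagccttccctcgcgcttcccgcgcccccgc
Cox7a2l promoter, chr17:83913674-83913923, minus strand: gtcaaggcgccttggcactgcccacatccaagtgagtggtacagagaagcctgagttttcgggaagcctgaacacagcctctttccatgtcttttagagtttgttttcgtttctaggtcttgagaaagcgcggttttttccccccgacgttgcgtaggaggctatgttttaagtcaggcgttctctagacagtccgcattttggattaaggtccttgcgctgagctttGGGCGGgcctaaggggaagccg
Ndufb8 promoter, chr19:44629933-44630182, minus strand: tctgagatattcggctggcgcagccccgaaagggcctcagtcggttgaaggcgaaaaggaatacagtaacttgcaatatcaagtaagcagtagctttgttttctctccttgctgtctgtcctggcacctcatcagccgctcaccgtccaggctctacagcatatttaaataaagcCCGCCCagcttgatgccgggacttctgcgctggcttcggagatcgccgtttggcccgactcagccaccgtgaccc
Atp5g3 promoter, chr2:73749384-73749633, minus strand: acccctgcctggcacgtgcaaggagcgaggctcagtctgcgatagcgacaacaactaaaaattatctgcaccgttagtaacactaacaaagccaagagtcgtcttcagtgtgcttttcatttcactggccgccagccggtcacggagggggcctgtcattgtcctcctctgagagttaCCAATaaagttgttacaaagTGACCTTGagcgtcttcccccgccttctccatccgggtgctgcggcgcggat
None of the 7 words occurred in these 250 bases of Cox5b. Ndufb2, an accessory subunit of complex I with a log2FC of -0.81 in RNA and -1.30 at its promoter, held the CREB word close to the start site and 1 NF-Y word. Atp5g2 held the NRF1 word, read on both strands in the palindrome marked, and Atp5g3 the estrogen-related receptor word and an NF-Y word, while Cox7a2l and Ndufb8 each held 1 GC box.

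Promoters of 69 of 86 members were found in the RefSeq table, with 300 bases each (250 before and 50 after the start). The NRF1 word was in 14.5% of the 69, against 5.71% of 9468 promoters of other tested genes and 2.8% of all 27025 RefSeq promoters. The YY1 word was in 14.5%, against 4.92% and 2.88%, and the estrogen-related receptor word in 5.8%, against 1.01% and 1.53%. The ETS word was in 7.25%, against 8.8% and 4.0%, the CREB word in 5.8%, against 3.57% and 1.88%, and NF-Y in 44.9%, against 39.9% and 37.9%. The GC box was in 40.6%, against 66.7% of promoters of other tested genes and 35.9% of all. Median GC content was 57.3% in members, 61.3% in other tested genes and 52.7% in all. Counts by direction were small: the NRF1 word was in 5 of 37 promoters of genes with more RNA in αTC1 and in 4 of 15 with more RNA in βTC6, the YY1 word in 5 and 3, and the ETS word in 3 and 0.

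The largest changes in accessibility lay far from start sites. These peaks were assigned to a member because its start site was nearest, and no data here link them to the gene. A peak 55.3 kb downstream of the Ndufb9 start, in an intron of Mtss1, had a lowest, median and highest count of 31.3, 36.6 and 41.3 in αTC1 and 0.563, 0.994 and 3.65 in βTC6 (log2FC -3.99 ± 0.24, FDR 1.73e-11). A second peak at 52.8 kb in the same gene had a log2FC of -3.07. Mtss1 RNA differed little, at 18.0, 18.0 and 20.2 FPKM in αTC1 and 15.3, 15.8 and 12.1 in βTC6 (log2FC -0.24, FDR 0.0499), and Ndufb9 had a log2FC of -0.37. The other 3 of the 5 largest toward αTC1 lay 21.2 kb upstream of Atp5g3 between genes (log2FC -2.45), 31.8 kb downstream of Cox4i2 in an intron of Bcl2l1 (-2.39) and 31.2 kb upstream of Atp5o in an exon of D430001F17Rik. The last had 54.9, 62.9 and 64.6 in αTC1 and 10.7, 12.3 and 16.6 in βTC6 (log2FC -2.21). Cox4i2 itself had nearly no RNA in either line. All 7 distal peaks listed for Uqcrb, more than 100 kb from its start, passed toward αTC1, with log2FC from -1.49 to -0.65, against 34.0% of all distal peaks, and as they were singled out after their values were seen nothing is read from that count.

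Toward βTC6, a peak 78.5 kb upstream of Cox6c, in an intron of Rgs22, had 1.82, 2.89 and 4.50 in αTC1 and 29.4, 32.2 and 49.0 in βTC6 (log2FC 3.19 ± 0.19, FDR 1.48e-11). Cox6c RNA was lower in βTC6 (log2FC -0.47 ± 0.09), and Rgs22 RNA reached at most 0.06 FPKM in any library. Peaks 16.3 and 31.6 kb downstream of the Ndufa12 start had a log2FC of 2.54 and 2.52, while Ndufa12 RNA did not pass. A peak 129.2 kb downstream of Ndufa4, between genes, had 13.0, 16.1 and 17.6 in αTC1 and 64.6, 75.4 and 84.1 in βTC6 (log2FC 2.21), and Ndufa4 RNA was lower in βTC6.

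Of the 8 distal peaks of Cox7a2l, 6 were higher in βTC6, as were 44.6% of all distal peaks, and these too are a description of peaks picked after their values were seen, apart from the one at 24.3 kb. Its peak 24.3 kb upstream, between genes, had 1.35, 2.32 and 3.64 in αTC1 and 26.5, 28.0 and 33.7 in βTC6 (log2FC 3.10 ± 0.18, FDR 1.16e-11). The peak 12.2 kb upstream had 9.80, 11.1 and 14.9 against 37.3, 38.5 and 42.4 (log2FC 1.62 ± 0.12, FDR 2.82e-10). Of the other 6 distal peaks, 4 were higher in βTC6, with log2FC of 1.03, 1.78, 1.33 and 1.36, the one 51.4 kb upstream was lower (-0.72) and the one 49.6 kb upstream did not pass. The centers of the 3 distal peaks that changed most by line are shown as sequence, since their counts followed the mixtures described next. None of the 7 words occurred in them.
Ndufb9 +55.3 kb peak, chr15:58820492-58820741, plus strand: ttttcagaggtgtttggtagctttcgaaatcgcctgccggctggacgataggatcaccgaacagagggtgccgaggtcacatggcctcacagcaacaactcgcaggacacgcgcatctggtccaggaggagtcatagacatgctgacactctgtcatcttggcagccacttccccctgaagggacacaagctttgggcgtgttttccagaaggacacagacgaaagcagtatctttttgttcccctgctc
Cox6c -78.5 kb peak, chr15:35946410-35946659, plus strand: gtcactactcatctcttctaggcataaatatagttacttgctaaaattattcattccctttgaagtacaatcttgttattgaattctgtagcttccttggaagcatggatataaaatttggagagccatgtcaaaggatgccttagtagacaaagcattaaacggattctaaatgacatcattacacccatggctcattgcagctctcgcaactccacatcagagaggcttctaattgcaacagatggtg
Cox7a2l -24.3 kb peak, chr17:83937881-83938130, plus strand: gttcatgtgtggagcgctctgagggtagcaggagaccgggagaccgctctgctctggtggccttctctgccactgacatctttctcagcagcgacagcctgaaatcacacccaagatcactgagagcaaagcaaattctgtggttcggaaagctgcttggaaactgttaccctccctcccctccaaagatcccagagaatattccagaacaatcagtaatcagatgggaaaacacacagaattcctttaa
These 250 bases lie at the middle of each peak and outside annotated exons.

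The 9 mixtures, whose counts played no part in ranking peaks by log2FC but which may have helped to define and normalize the consensus peaks, asked whether these differences scale with the share of αTC1 cells. The 6 peaks with the largest log2FC were examined by exact permutation tests over 362880 orders (two-sided, p adjusted over the 6). The Cox7a2l peak at -24.3 kb went through 28.8, 21.2, 18.1, 14.3, 14.0, 13.1, 7.79, 7.47 and 2.85 as αTC1 cells rose from 10% to 90%, falling at every step (r = -0.969, exact permutation p = 5.51e-06, the smallest these permutations can give, adjusted p = 3.31e-05, rho = -1.0). The Ndufb9 peak at +55.3 kb went through 6.72, 9.18, 16.1, 14.5, 16.1, 24.5, 23.5, 29.2 and 29.5 (r = 0.97, exact permutation p = 8.82e-05, adjusted p = 0.000176, rho = 0.933). The Cox6c peak at -78.5 kb went through 43.6, 39.4, 27.6, 31.6, 25.6, 14.0, 17.6, 12.5 and 5.69 (r = -0.965, exact permutation p = 8.27e-05, adjusted p = 0.000176, rho = -0.967). Without the outermost mixtures, r over the remaining 7 was -0.972, 0.944 and -0.925.

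The Ndufb9 peak at +52.8 kb (r = 0.906, exact permutation p = 0.00128, adjusted p = 0.00153, rho = 0.85) and the Ndufa12 peak at +16.3 kb (r = -0.904, exact permutation p = 0.000827, adjusted p = 0.00124, rho = -0.9) kept their relation without the outermost mixtures (r = 0.824 and -0.856). The Ndufa12 peak at +31.6 kb had r = -0.808 (exact permutation p = 0.00638, adjusted p = 0.00638) but a rho of -0.617 (adjusted exact permutation p = 0.0857). Without the outermost mixtures its r was -0.562 (exact permutation p = 0.191), so that relation rests on them.

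**Figure D5:**
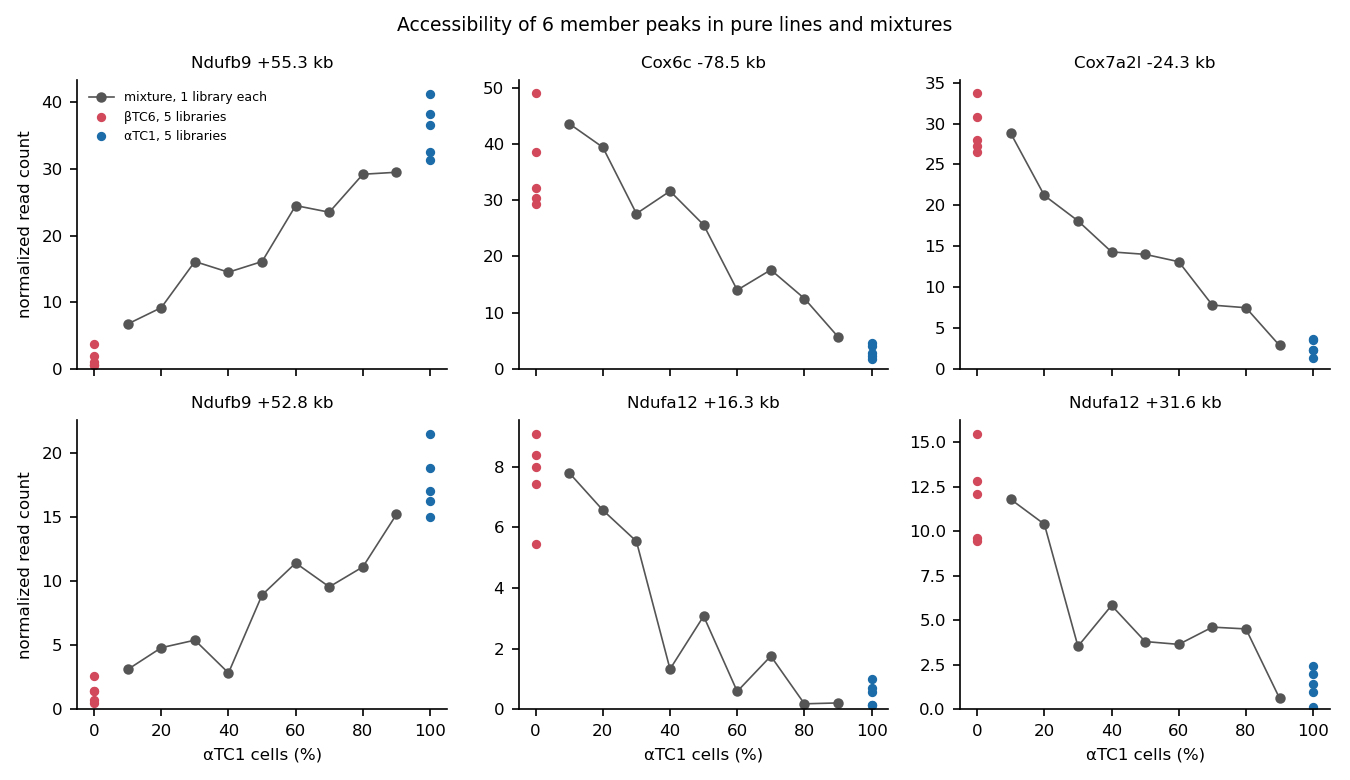
Normalized read count (y axis) against the share of αTC1 cells in percent (x axis) for the 6 member peaks with the largest differences, with 1 library per mixture and the 5 libraries of each pure line at 0% and 100%. The Cox7a2l peak at -24.3 kb falls from 28.8 at 10% to 2.85 at 90% and the Ndufb9 peak at +55.3 kb rises from 6.72 to 29.5.

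The summed promoter signal also rose with the share of αTC1 cells, but unevenly, staying nearly level from 40% to 70% αTC1. The summed normalized read count of the 70 member promoter peaks was 1642 to 1721 in βTC6 and 2351 to 2696 in αTC1. In the mixtures it went through 1643, 1728, 1800, 1852, 1851, 1858, 1825, 2125 and 2138 as αTC1 cells rose from 10% to 90%. Over all 14582 promoter peaks the sum had a like course, from 399600 to 419500 up to 70% αTC1 and then 454400 and 448700, beside 375900 to 400200 in βTC6 and 476600 to 509900 in αTC1. The sum over the 89 distal peaks showed no such course, from 763 to 835 in the mixtures beside 817 to 839 in βTC6 and 833 to 879 in αTC1. It pools 38 peaks higher in αTC1 with 28 higher in βTC6, which offset each other, so nothing is read from its flat course. Single peaks were counted by the sign of their correlation with the share of αTC1 cells, without a test. Of the 56 promoter peaks higher in αTC1, 49 rose with αTC1 cells (87.5%, median r 0.666), against 91.2% of all such promoter peaks (median r 0.691). Both the Uqcrq and the Atp5e promoter fell with them. Of 38 distal member peaks higher in αTC1, 36 rose with the share of αTC1 cells (94.7%), against 95.8% of all such distal peaks. Of 28 distal member peaks higher in βTC6, 27 fell with it (96.4%), against 97.8% of all such distal peaks.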

How the data were processed

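RNA-seq (3 αTC1 and 3 βTC6 libraries) and ATAC-seq (5 of each line and 9 mixtures) were analysed from the deposited tables, and groups came from the submitters' labels. Per the methods, the authors trimmed RNA reads with Trim Galore 0.40, aligned them to mm9 and deposited RSEM 1.2.12 expected counts and FPKM, which keep no strand information. For ATAC-seq the authors trimmed with Trimmomatic 0.32, aligned with BWA 0.7.9a, called peaks with MACS2 2.1.0, merged them with DiffBind 2.2.5 and annotated them with HOMER 4.6. The deposited values are TMM-normalized read counts per consensus peak, a coverage signal. For 100% of them whole reads could be recovered (tolerance 0.01). How transposase cuts were shifted is not given in the sources used here. The deposited peak class columns hold the authors' own comparison and were not used, and 0 columns of sample values lacked a sample.

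Expected counts were rounded to whole numbers, genes with at least 1 FPKM in all 3 libraries of either line were kept, and edgeR 4.0.16 (quasi-likelihood, TMM, R 4.3.3) was fitted with Benjamini-Hochberg adjustment over all 12195 genes. The study scaled to ERCC spike-ins with RUVSeq, which was not at hand, so ERCC scaling and an ERCC-derived factor were alternatives. Peaks were tested with limma 3.58.1 (trend) on log2(normalized read count + 1) over all 65053 peaks, so fold changes are on that scale and understate changes of low peaks. FPKM were used for levels. The fits were also run on simulated counts, the outcome of which is not reported here. Coordinates are mm9 (GENCODE vM1 for genes, the deposited table for peaks).

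The members and lists were chosen with earlier results of these data known. Full statistics were given for the 2 largest changes each way per complex among those passed, all members beyond a log2FC of 1, and all isoform groups. Peaks described were the 5 largest each way and the promoters of these genes, and from each pathway list the 2 largest changes each way. Ndufb2, Sdha, Sdhb, Cyc1, mt-Co1, Esrra, Gabpa, Yy1, Nrf1, Atp5h, the Atp5e promoter, the Ndufs1 start-site peak and the other distal peaks of Cox7a2l and Uqcrb were added after values were seen. Values of some genes that these rules select are not reported here.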

Additional observations from a re-analysis of the deposited data

Results flagged for a closer look

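In 3 of 64 groups of 5 ATAC-seq libraries examined at the described peaks, 1 library lay far from the others, with a gap to its nearest neighbor above Dixon's 95% critical value of 0.71 of the range. Chance gives this in about 1 of 20 groups. At the Atp5g3 promoter, βTC6 replicate 5 was lowest with a normalized read count of 6.38, while the other 4 lay between 15.0 and 18.5. At the Ndufb8 promoter, βTC6 replicate 2 was lowest with 9.02, while the others lay between 10.4 and 10.8. At the Sdhc promoter, βTC6 replicate 1 was highest with 25.1, while the others lay between 16.8 and 19.1.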

How the results depend on the processing

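With RNA libraries scaled to the ERCC total, 2 members passed, 1 in each direction, and both were among the 64 that passed with TMM. The cause was not tested. DESeq2 gave 47 and 17, an ERCC-derived factor as covariate 46 and 17, and limma on FPKM 49 and 13, where 59 of the 64 passed again and 1 of the 64 had the other sign. Beyond a log2FC of 1 there were 4 members higher in αTC1 with limma on log2(FPKM + 1) or log2(FPKM + 0.1), and 3 in each direction without the FPKM filter. Leaving out 1 RNA library gave 52 to 61 members passed, 41 to 48 higher in αTC1, 11 to 17 higher in βTC6, the fewest without αTC1 replicate 1, and 1 to 2 beyond 1 toward αTC1. Replicate numbers did not pair the samples, since same-numbered libraries correlated in their deviations at -0.05 to 0.03 in RNA-seq and -0.002 to 0.069 in ATAC-seq. With a replicate block 62 members (47 and 15) and 126 peaks (96 and 30) passed. For peaks beyond 1, a pseudocount of 5 left 13 higher in αTC1 and 12 higher in βTC6, as a larger pseudocount shrinks low peaks. Quantile normalization gave 86 and 24 peaks passed, 45 and 3 at promoters, and turned the log2FC of the Atp5b promoter to 0.0332 and of the Cox8a promoter to 0.0738, neither past FDR 5%. Sign changes of values past FDR 5% in neither fit were those of Cox8a RNA to -0.0089 with ERCC scaling and to -0.0149 without βTC6 replicate 3 (leaving out 1 library at a time gave -0.0149 to 0.1437), of the Cox7a1 -5 bp promoter peak to -0.177 with quantile normalization and of the Cox7b promoter to 0.0113 with replicates 4 and 5 alone. Replicates 4 and 5 alone left 1 promoter higher in βTC6, and edgeR on the recovered whole reads gave 95 and 28 peaks. For the single genes, peaks and medians described, over all alternatives, 981 values kept direction and side of the threshold, 37 lost significance, 6 gained it and 6 changed sign. Of the 7 members that failed the FPKM filter, Cox6b2 and Cox7b2 passed in the fit without it, 4 did not, with standard errors of the log2FC from 0.92 to 1.90, and Cox8c had no reads.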
